A study of Rattus norvegicus with 22 samples.

Results

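The transcripts described here belong to the signalling of 2 trophic factors of motor neurons, glial cell line-derived neurotrophic factor (GDNF) and ciliary neurotrophic factor (CNTF), together with the transcription factor Stat3. The members were chosen by gene symbol. Of the 9 genes asked for (Gdnf, Gfra1, Gfra2, Ret, Cntf, Cntfr, Lifr, Il6st and Stat3), 3 have a probe set of their own in the platform annotation of the value table, namely Gfra2 with 3 probe sets, Stat3 with 2 and Cntf with 1. These 6 of the 1050 probe sets were kept apart throughout. Gdnf, Gfra1, Ret, Cntfr, Lifr and Il6st were not analysed here.

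GDNF and its relatives bind a receptor of the GFRA family that is anchored to the membrane by a lipid, and the pair then activates the receptor tyrosine kinase RET. GFRA2 is the preferred co-receptor of neurturin, the closest relative of GDNF. CNTF binds its own receptor CNTFR, which joins LIFR and gp130, the product of Il6st. Their JAK kinases phosphorylate STAT3, which then enters the nucleus and drives transcription. Both factors are known for keeping motor neurons alive after injury, and CNTF is made by Schwann cells and astrocytes. The arrays measure transcript and not phosphorylation, so they carry no reading of STAT3 activity.

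All arrays came from Wistar rats of postnatal day 0 to 4, with 1 animal per array. The sources name no treatment or genetic change besides the cuts, tracer and incubation described below. Motor neurons (MNs, 7 arrays) were filled with rhodamine dextran (RDA) from the cut ventral roots of lumbar segment 2. Descending commissural interneurons (dCINs, 7 arrays, named CIN in the sample labels) of the same segment were filled from a hemisection between lumbar segments 3 and 4. MIX (8 arrays) holds ventral horn cells sampled at random, which can include both classes. Axons were thus cut before freezing in both labelled groups. With the tracer applied, the isolated cords were kept for 3 hours in oxygenated Ringer's solution at room temperature and then frozen. Cells were laser dissected from sections of 10 µm. A sample held 50 to 100 cells for dCINs (median 75), 55 to 250 for MNs (median 100) and 95 to 187 for MIX (median 112.5). MN arrays 1 and 2, with 250 and 230 cells, exceed all other samples.

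Values are intensity summaries on a linear scale, and the median of an array lay between 43.5 and 50.9. A probe set was called changed where the p of limma, adjusted by Benjamini and Hochberg across the 1050 probe sets, was under 0.1. Differences are on the log2 scale. Levels of different probe sets are not read as relative amounts of transcript, since each binds with its own strength. Sums over marker probe sets and places beside the array median describe signal only. Precision here rests on how many arrays each group had. In pooled cells, fewer cells of a type and less RNA per cell cannot be told apart.

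The labels were checked against marker genes. The summed signal of the 6 motor neuron probe sets (Slc18a3, the vesicular acetylcholine transporter, with Calcb, Nefh and Sncg, 4 of 9 listed genes) was 7610 to 9899 in MNs, 1030 to 2851 in dCINs and 3799 to 7707 in MIX. The sum of the 2 probe sets of Slc32a1, the vesicular transporter of inhibitory neurons, ran the other way, with 387 to 804 in dCINs and 72.1 to 400 in MNs, ranges that overlap. Among the glial lists, the 9 astrocyte probe sets (5 of 10 genes) summed to 1214 to 2149 in dCINs, 937 to 1540 in MNs and 1030 to 2084 in MIX. The 12 oligodendrocyte probe sets (6 of 11 genes) summed to 802 to 1251 in dCINs, 838 to 1108 in MNs and 695 to 1553 in MIX. Itgam, the 1 measured gene of 7 for microglia and leukocytes, stayed between 14.1 and 27.5. No gene of the vessel or Schwann cell lists was measured.

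Stat3 was the 1 member gene with a called difference between dCINs and MNs, and that call did not hold in every setting given below. Both of its probe sets were higher in MNs than in dCINs, by 1.85-fold and 1.69-fold, and 1 of the 2 was called. That was also the 1 call among the 6 member probe sets, where 3.81% of all probe sets were called in this comparison and 1.43% were called higher in MNs. Gfra2 and Cntf showed differences that limma did not call.

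The upstream sequence of the gene with the called probe set is shown for context. It is the part of the RefSeq promoter window of Stat3 that lies outside the annotated gene, in rat build GRCr8 at chr10:86363514-86363609 on the minus strand, 96 bases written 5′ to 3′. Capitals mark a CCAAT box read on the opposite strand.
Stat3: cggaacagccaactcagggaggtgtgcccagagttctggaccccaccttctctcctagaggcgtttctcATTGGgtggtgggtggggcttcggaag
The whole window of 300 bases (250 before the start and 50 after it) held 2 matches to CCAAT on either strand, a motif found in 37.5% of the 33469 rat windows searched. It held 0 matches to the palindromic STAT element TTCNNNGAA (8.87% of windows) and 0 to the GC box GGGCGG (33.1%), both strands read. The Cntf window held 0 matches to each of the 3 motifs. No Gfra2 window was in the table. These matches describe letters in a window and say nothing of binding.

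The signal of the Stat3 probe set rc_AI008865_s_at was 500, 263, 215, 336, 287, 219 and 174 in dCIN arrays 1 to 7. It was 744, 773, 365, 389, 468, 474 and 421 in MN arrays 1 to 7. The groups overlapped through dCIN array 1, which reached above 5 of the 7 MN arrays, and every other dCIN array lay below every MN array. The mean was 285 ± 109 (SD, n = 7) in dCINs and 519 ± 168 (SD, n = 7) in MNs. The log2 difference, dCIN minus MN, was -0.89 (SE 0.23, 95% interval -1.38 to -0.39, limma adjusted p = 0.0580). An exact two-sided permutation test over the 3432 splits of these 14 arrays gave p = 0.00583, where the smallest possible value is 0.000583.

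The Stat3 probe set rc_AI236828_s_at gave 676, 287, 232, 272, 243, 227 and 156 in dCIN arrays 1 to 7. In MN arrays 1 to 7 it gave 889, 889, 325, 347, 325, 340 and 419. The overlap was like that of the first probe set, with dCIN array 1 above 5 of the 7 MN arrays and all other dCIN arrays below them. The mean was 299 ± 171 (SD, n = 7) in dCINs and 505 ± 264 (SD, n = 7) in MNs. The log2 difference was -0.76 (SE 0.32, 95% interval -1.44 to -0.07), which did not pass limma's threshold (adjusted p = 0.385, unadjusted p = 0.0322). The exact permutation test gave p = 0.0583.

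**Figure D1:**
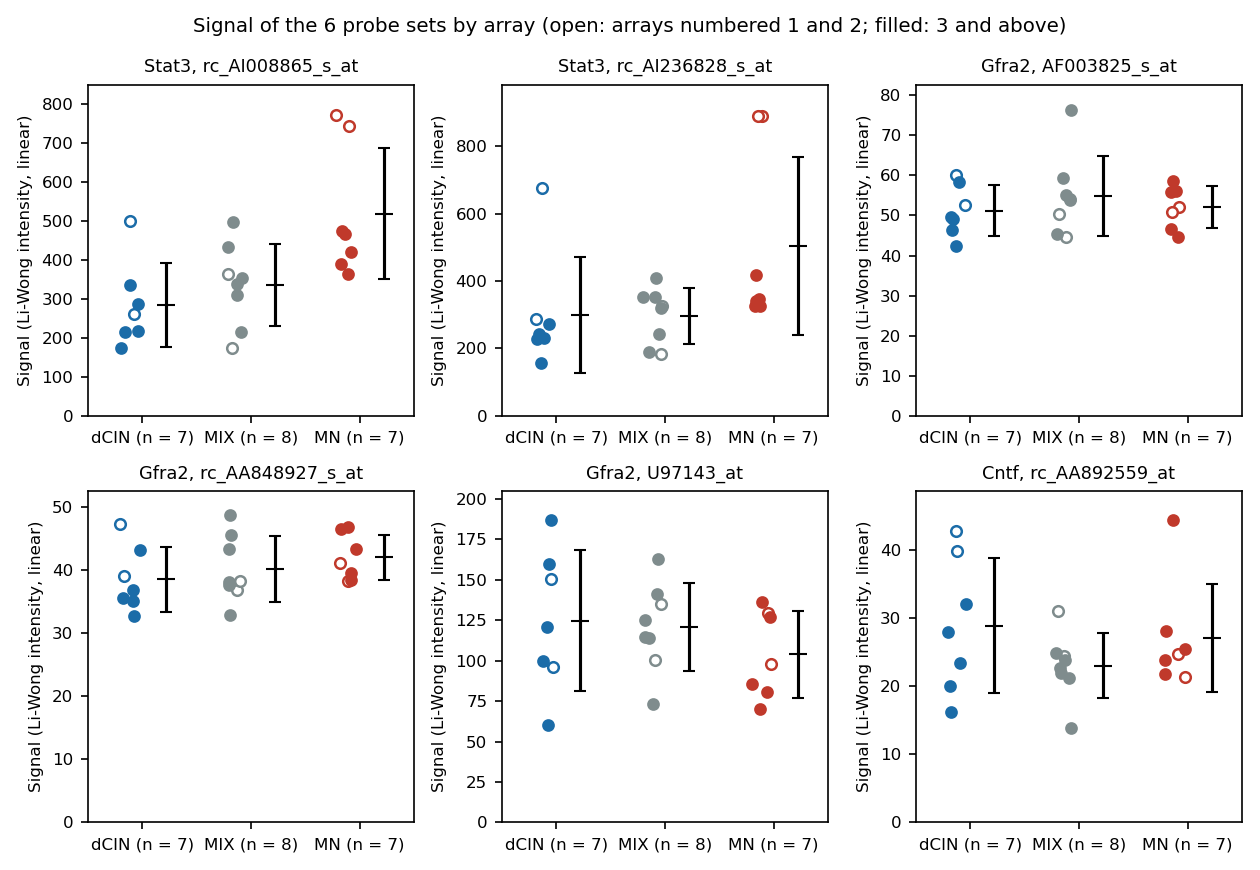
Signal of each member probe set (linear Li-Wong intensity, y axis from 0) in dCIN, MIX and MN arrays. Points are arrays, open for arrays numbered 1 and 2 and filled for the others, and the bars give the group mean ± SD. For both Stat3 probe sets, MN arrays 1 and 2 and dCIN array 1 stand above the rest of their groups, whereas the groups of Gfra2 and Cntf lie over each other.

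The 3 arrays at the top of both Stat3 plots carry the numbers 1 and 2. Array numbers are only those of the sample labels, and what the samples of 1 number share is not given in the sources used here. Among arrays 3 to 7, a split chosen after the values were seen, rc_AI008865_s_at read 174 to 336 in dCINs and 365 to 474 in MNs, with no overlap and a fold of 1.76. Likewise rc_AI236828_s_at read 156 to 272 in dCINs and 325 to 419 in MNs, with no overlap and a fold of 1.57. This is a description with no test, since the split leaves out dCIN array 1, through which the groups overlapped. On the same 10 arrays 4.57% of all probe sets did not overlap, 1.81% with the higher signal in MNs. Among arrays 1 and 2 the MN signals were also the higher ones, by 2.09-fold and 2.02-fold.

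The call for rc_AI008865_s_at held in 9 of the 14 fits that each left out an array. It was lost without dCIN array 3 (adjusted p = 0.119), 6 (0.125) or 7 (0.117) and without MN array 1 (0.120) or 2 (0.108), with the log2 difference between -1.03 and -0.78 over all 14. With cell number as a covariate the difference was -0.60 (adjusted p = 0.283), and without the MN arrays of over 200 cells it was -0.64 (adjusted p = 0.177). For rc_AI236828_s_at the same 2 settings gave -0.36 and -0.37 (adjusted p = 0.773 and 0.722). Leaving out dCIN array 1 instead brought that probe set past the threshold (-0.98, adjusted p = 0.0735). For rc_AI008865_s_at the call was kept with array medians subtracted (limma adjusted p = 0.0295), on all 22 arrays (0.0454) and after quantile normalization (0.0861). It was also kept with arrays 1 and 2 against the rest as a covariate (0.00336), which brought rc_AI236828_s_at past the threshold too (0.0153). The 2 MN arrays with the most cells were also the 2 with the highest Stat3 signal. In them cell number, array number and cell type cannot be told apart. The highest dCIN array for both probe sets, array 1, held 60 cells. The astrocyte sum given above (937 to 1540 in MNs and 1214 to 2149 in dCINs) was mostly S100b. S100b had a mean of 771 in MNs and 1103 in dCINs. By log2 difference, 6 of the 9 astrocyte probe sets were higher in dCINs and 3 were lower. Limma called 0 of them, beside 3.81% of all probe sets. Both Gfap probe sets were among the lower ones (-0.05 and -0.18), with means of 29.2 and 48.3 in dCINs and 30.1 and 53.9 in MNs. The part of RNA from glia in the Stat3 difference was not tested.

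In MIX, the signal of rc_AI008865_s_at ran from 175 to 498 with a median of 346 (mean 336 ± 106, SD, n = 8). That of rc_AI236828_s_at ran from 183 to 408 with a median of 323 (mean 297 ± 82.5, SD, n = 8). Each MIX range overlapped both labelled groups. Against MNs the log2 differences, MIX minus MN, were -0.64 (95% interval -1.13 to -0.15) and -0.68 (95% interval -1.27 to -0.08). Neither was called (limma adjusted p = 0.345 and 0.412), and the exact permutation test gave p = 0.0188 and 0.0347. Without the MN arrays of over 200 cells the differences were smaller, -0.40 and -0.29 (limma adjusted p = 0.943 and 0.950). Against dCINs they were 0.25 (95% interval -0.24 to 0.74) and 0.08 (95% interval -0.51 to 0.67). Thus limma called 0 of the 6 member probe sets in either MIX comparison, where 0.952% (against MNs) and 0.476% (against dCINs) of all probe sets were called. At an unadjusted p under 0.05 the counts were 2 of 6 against MNs, both of them Stat3, beside 11.8% of all probe sets, and 0 of 6 against dCINs beside 7.14%. The comparisons of MIX and of dCINs with MNs share the same MN arrays.

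**Figure D2:**
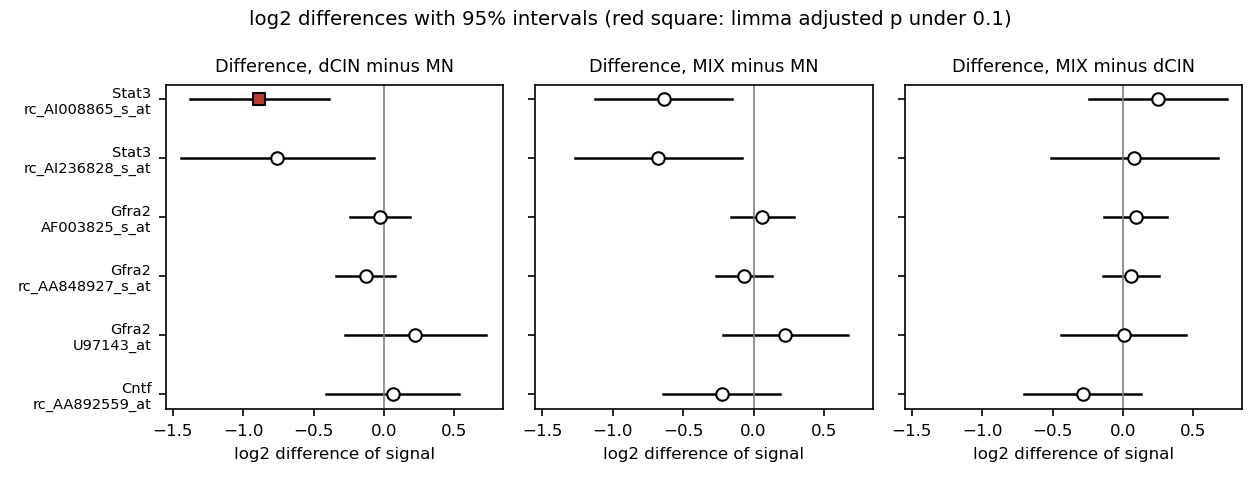
Log2 difference of signal for each member probe set in the 3 comparisons (x axis, log2 units), as points with 95% intervals from limma. The red square is the 1 call at an adjusted p under 0.1, Stat3 rc_AI008865_s_at in dCIN minus MN. Both Stat3 intervals against MNs lie below 0, and all Gfra2 and Cntf intervals cross 0.

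Both Stat3 probe sets varied together from array to array. Pearson's r of their log2 signals was 0.91 over the 22 arrays (Spearman's rho 0.87), 0.89 after the group means were removed, and 0.85 without MN arrays 1 and 2, the 2 farthest from the median. These points share their libraries and are given as a description. The probe sets of other genes most like them were Ccr1, a chemokine receptor (r = 0.87 and 0.93), and Kcnj10, an inwardly rectifying potassium channel best known from glia (0.85 and 0.92). Next were Smn1, the survival of motor neuron gene (0.84, with rc_AI008865_s_at), and Irf1, an interferon-regulated transcription factor (0.92, with rc_AI236828_s_at). For rc_AI236828_s_at, 3 of 1049 probe sets ranked above the second Stat3 probe set. Between dCINs and MNs none of these 4 was called, with Ccr1 at 45.2 to 126 in dCINs and 66.4 to 201 in MNs (log2 difference -0.59, adjusted p = 0.427) and Kcnj10 at 46.0 to 153 and 73.0 to 135 (-0.29, adjusted p = 0.716).

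**Figure D3:**
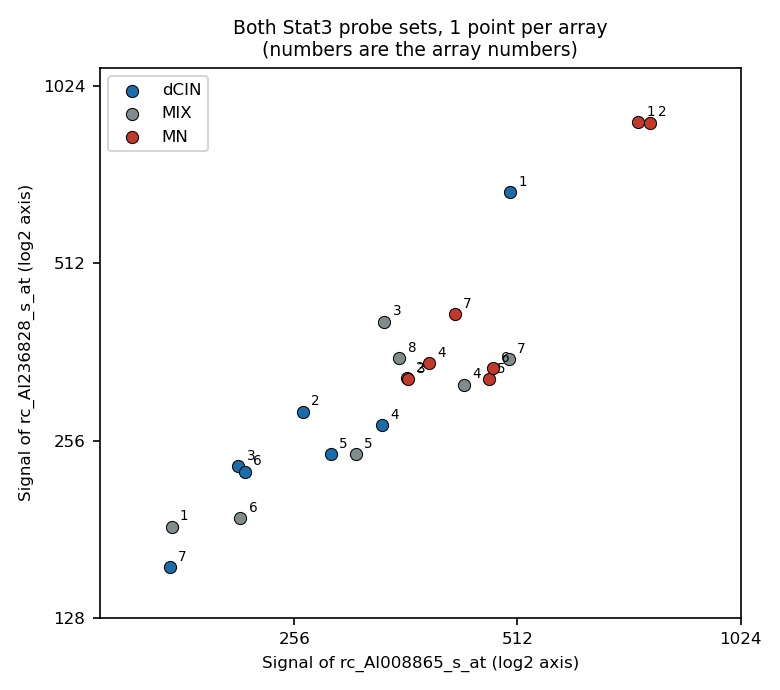
Signals of both Stat3 probe sets against each other on log2 axes, 1 point per array with its array number. The 22 points lie along 1 line (r = 0.91), with MN arrays 1 and 2 and dCIN array 1 at its upper end and the other dCIN arrays, with MIX arrays 1, 5 and 6, at its lower end.

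Gfra2, the co-receptor, showed no call in any comparison. The probe set AF003825_s_at read 42.3 to 60.2 in dCINs (median 49.6), 44.6 to 58.6 in MNs (median 52.0) and 44.6 to 76.3 in MIX (median 53.9). Its log2 difference, dCIN minus MN, was -0.03 (SE 0.10, 95% interval -0.24 to 0.18). The probe set rc_AA848927_s_at read 32.7 to 47.3 in dCINs (median 36.9), 38.3 to 46.9 in MNs (median 41.2) and 32.9 to 48.8 in MIX (median 38.2), a difference of -0.13 (SE 0.10, 95% interval -0.34 to 0.08). The probe set U97143_at had the widest spread, 60.1 to 187 in dCINs (median 120.5), 70.4 to 136 in MNs (median 97.7) and 73.2 to 163 in MIX (median 120.1). Its difference was 0.22 (SE 0.24, 95% interval -0.28 to 0.73). The last interval reaches a 1.65-fold higher signal in dCINs, so the data do not show that the groups were alike.

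The 3 Gfra2 probe sets did not follow each other as the Stat3 pair did. AF003825_s_at and rc_AA848927_s_at correlated over the 22 arrays with r = 0.51, and U97143_at gave r = -0.33 and -0.27 with them. Without the 2 arrays farthest from the median of U97143_at these were -0.25 and -0.11. Closest to AF003825_s_at were Itpr1, the inositol trisphosphate receptor (r = 0.89), Cacna1d, an L-type calcium channel (0.85), and the protease Prss22 (0.80). Without dCIN array 6 and MIX array 7, the 2 farthest from its median, these were 0.78, 0.78 and 0.70. Closest to rc_AA848927_s_at were Ncam1 by its probe set H33836_s_at (0.69), the acid-sensing channel Asic2 (0.65) and the kinase Araf (0.64). Without its 2 farthest arrays, dCIN array 1 and MIX array 8, these were 0.63, 0.63 and 0.55. For U97143_at the highest r was 0.54, shared by the photoreceptor channel gene Cnga3 and a probe set without a symbol, with Nln, a peptidase, next at 0.48. The signal of rc_AA848927_s_at lay below the median of its array in 20 of 22 arrays, that of AF003825_s_at in 4 and that of U97143_at in 0.

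Cntf, the ligand, was read by rc_AA892559_at below the median of its array in 21 of 22 arrays. In dCIN arrays 1 to 7 it read 39.8, 42.8, 16.2, 20.0, 27.9, 32.1 and 23.5. In MN arrays 1 to 7 it read 24.7, 21.3, 44.4, 21.8, 23.8, 28.1 and 25.5. The dCIN values ran from 16.2 to 42.8 and the MN values from 21.3 to 44.4, where MN array 3 alone stood above the other MN arrays. MIX ran from 13.9 to 31.0. The log2 difference, dCIN minus MN, was 0.06 (SE 0.22, 95% interval -0.41 to 0.53, limma adjusted p = 0.936), and its sign turned when arrays 1 and 2 were left out (-0.25, adjusted p = 0.719). MIX minus MN was -0.22 (95% interval -0.64 to 0.19) and MIX minus dCIN -0.28 (95% interval -0.70 to 0.13). The probe sets most like it were Calm2, a calmodulin gene (r = 0.67), Maoa, monoamine oxidase A (0.65), and Selp, an adhesion molecule (0.64). Without dCIN array 2 and MN array 3, the 2 farthest from the median of Cntf, these were 0.54, 0.50 and 0.40.

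The other genes of the pathway, from lists of 74 non-member genes, were measured for 20 genes by 39 probe sets. Between dCINs and MNs, 1 of the 39 was called, beside 3.81% of all probe sets, and 4 had an unadjusted p under 0.05, beside 10.9%. The median log2 difference was -0.13, with 31 of 39 (79.5%) below 0, while over all 1050 probe sets the median was -0.03 and 57.0% lay below 0. Between MIX and MNs and between MIX and dCINs limma called 0 of the 39, beside 0.952% and 0.476% of all probe sets. At an unadjusted p under 0.05 there were 6 and 7 of the 39, beside 11.8% and 7.14% of all probe sets. For MIX minus MN, 19 of the 39 (48.7%) lay below 0 with a median of 0.0050, beside 56.9% and -0.04 over all probe sets. For MIX minus dCIN, 14 of the 39 (35.9%) lay below 0 with a median of 0.05, beside 54.4% and -0.02.

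In the GDNF family, Ncam1 was the 1 measured gene besides Gfra2. Its protein, a cell adhesion molecule, can also bind GDNF with GFRA1. The probe set X06564_at read 593 ± 332 (SD, n = 7) in dCINs and 361 ± 207 (SD, n = 7) in MNs, a log2 difference of 0.75 (SE 0.47, adjusted p = 0.643). This value depended on the MN arrays. It was 0.21 without those of over 200 cells (adjusted p = 0.931). With arrays 1 and 2 against the rest as a covariate it was 0.75 and called (adjusted p = 0.0788). The second Ncam1 probe set, H33836_s_at, went the other way, with a mean of 28.1 in dCINs and 30.2 in MNs. Its log2 difference was -0.13 and was not called (limma adjusted p = 0.782). In the CNTF and interleukin-6 family, the ligands Il6 and Lif and the receptor Il6r were measured. Il6r gave -0.17 (adjusted p = 0.647) and Il6, by its probe set M26745cds_s_at, -0.25 (adjusted p = 0.716), or -0.06 without the MN arrays of over 200 cells.

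Among the JAK and STAT genes, Stat3 held the 1 call in 10 probe sets of 7 genes, where 3.81% of all probe sets were called. Pias3, an inhibitor of STAT3, ran the other way, at 96.5 ± 13.9 (SD, n = 7) in dCINs and 78.2 ± 11.03 (SD, n = 7) in MNs, a log2 difference of 0.30 (SE 0.11, 95% interval 0.06 to 0.55). It was not called (adjusted p = 0.285). Jak2, a kinase bound to gp130, gave 0.55 by AJ000557cds_s_at (SE 0.30, adjusted p = 0.579), with 0.05 and 0.10 by its other 2 probe sets. Without the MN arrays of over 200 cells the first value was 0.08 (adjusted p = 0.933). Differences of Jak1, Stat4 and the feedback inhibitors Socs2 and Socs3 lay between -0.11 and -0.02 and were not called.

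Of the kinases and adaptors below RET and gp130, 9 probe sets of 4 genes were measured. Limma called 0 of them, beside 3.81% of all probe sets, and 0 had an unadjusted p under 0.05, beside 10.9%. The log2 difference was below 0 for 8 of the 9, and for 57.0% of all probe sets. The 3 probe sets of Map2k2, the kinase MEK2, gave -0.46, -0.43 and -0.41, the first with an adjusted p of 0.457. Those of Map2k1, the kinase MEK1, gave -0.24 and -0.15, the first with an adjusted p of 0.601. Without the MN arrays of over 200 cells the first probe sets of Map2k2 and Map2k1 gave -0.27 and -0.10.

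Genes whose transcription STAT3 is known to raise were measured for 7 of 16 genes by 17 probe sets, 15 of which had the lower mean in dCINs, with a median log2 difference of -0.13. Over all probe sets 57.0% lay below 0 with a median of -0.03, and several of the 17 measure the same gene. The list was chosen with earlier results of these data known, so these counts are a description and not a test. At an unadjusted p under 0.05 there were 3 of the 17, beside 10.9% of all probe sets. Limma called 1 of the 17, beside 3.81% of all probe sets. The 1 call was Hspb1, a small heat shock protein that protects axotomised neurons, by rc_AA998683_g_at, with 53.5 ± 8.37 (SD, n = 7) in dCINs and 90.6 ± 28.4 (SD, n = 7) in MNs. Its difference was -0.73 (SE 0.16, adjusted p = 0.0153), and all 14 fits that left out an array called it (adjusted p 0.00558 to 0.0407). The other 2 Hspb1 probe sets gave -0.13 and -0.11 and were not called, so the gene's probe sets disagree. The paper already lists the called probe sets of Hspb1 and Stat3 as higher in MNs. Bcl2, which blocks apoptosis, gave -0.38 by L14680_g_at (SE 0.12, adjusted p = 0.145) and -0.27 by its second probe set. Fos, an immediate early gene, gave -0.26 by X06769cds_at (adjusted p = 0.439; -0.12 without the MN arrays of over 200 cells), with -0.21 and 0.20 by its other probe sets. Gfap, which also stands on the astrocyte list, gave -0.18 and -0.05. Of the other genes on this list, Socs3 gave -0.02 and Icam1 gave -0.18 and -0.05. The probe sets of Bcl2l1 gave 0.01, -0.01, -0.30 and -0.13, and none of these was called.

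**Figure D4:**
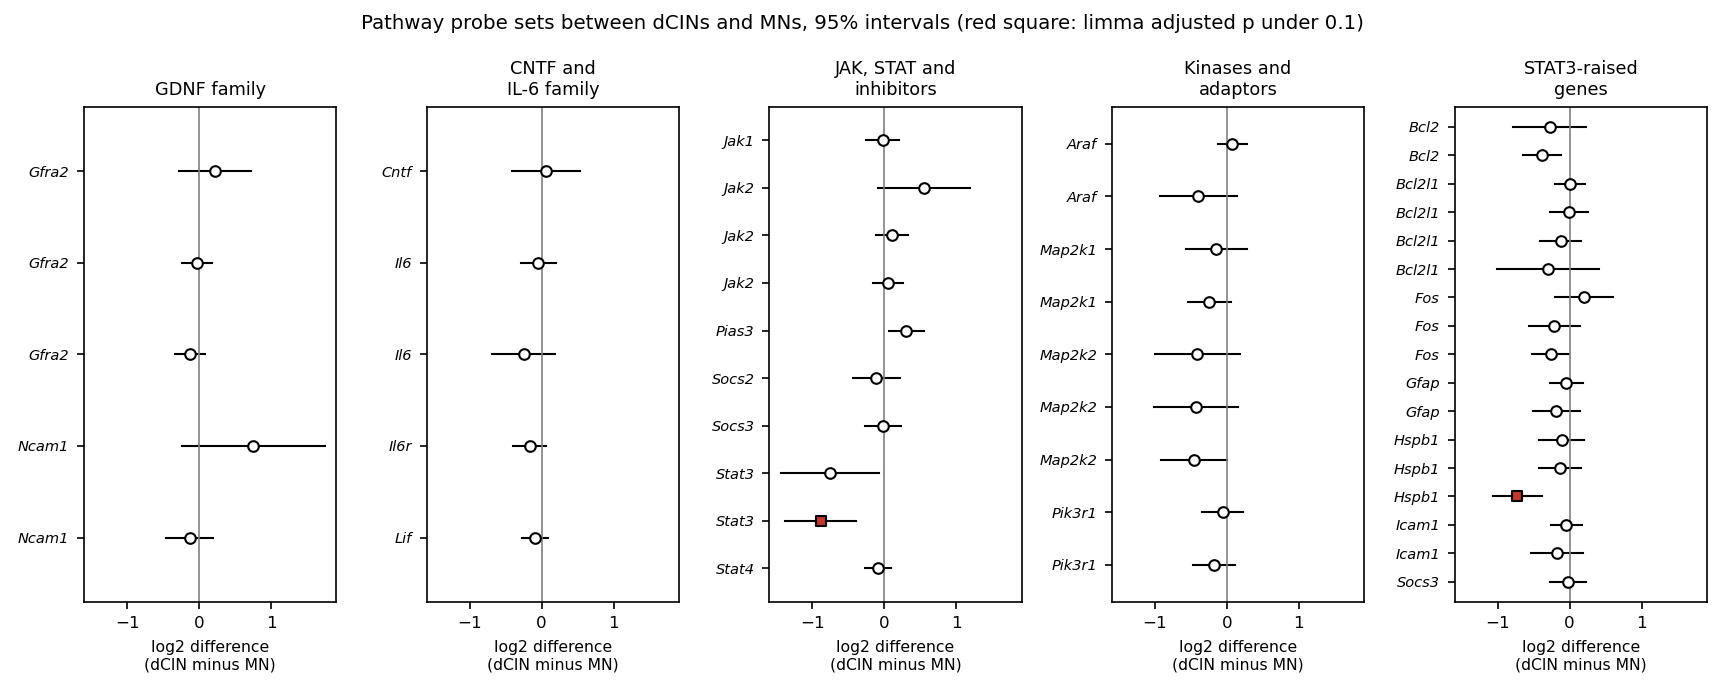
Log2 difference, dCIN minus MN, with its 95% interval for each probe set of the 5 pathway lists (x axis, log2 units), members included. Red squares are called at an adjusted p under 0.1. The calls are 1 probe set of Stat3 and 1 of Hspb1, and the other intervals are not called.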

How the data were processed

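The authors deposited intensity values on a linear scale, made from the perfect match probes by global background subtraction, 2 normalization steps over all arrays (quantile linear transformation, then quantile projection) and Li-Wong summaries with the affy package. RNA had passed 2 rounds of amplification, and 5 µg was hybridized per array. Of the 1050 probe sets, 961 have 1 symbol in the platform annotation, 7 have several and 82 have none there.

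Values were log2-transformed with no offset and no filter and fitted with limma 3.58.1 in R 4.3.3 (lmFit, eBayes), dCINs against MNs on their 14 arrays and MIX on all 22. Single probe sets were also compared by exact permutation, two-sided. Code was tested on simulated data. The members and lists were chosen with earlier results of these data known. Named were all member probe sets, called genes of the pathway lists or else the 2 with the smallest p in each, the 3 probe sets most correlated with each member, and marker genes that define a list or were called. The text also gives further probe sets of named genes and the values or ranges of some remaining genes. Promoter windows are from RefSeq (GRCr8). Alternatives were an offset of 32, a mean log2 value of at least 6, other scalings, covariates and thresholds, and leaving out arrays. The use of arrays 3 to 7 alone was added after the data were seen. Real time RT-PCR was not analysed here.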

Additional observations from a re-analysis of the deposited data

Results flagged for a closer look

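In 3 of the 18 groups of arrays examined (6 member probe sets in 3 groups), 1 array stood far from the others of its group. Chance alone gives this in about 5% of groups. The signal of Stat3 rc_AI236828_s_at in dCIN array 1 was 676, with the next dCIN array at 287. The signal of Cntf rc_AA892559_at in MN array 3 was 44.4, with the next MN array at 28.1, and in MIX array 5 it was 13.9, with the next MIX array at 21.2.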

How the results depend on the processing

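Calls over all probe sets between dCINs and MNs numbered 40 and rose to 83 with arrays 1 and 2 against the rest as a covariate (31 to 55 when each array was left out). Between MIX and MNs there were 10, but 3 after quantile normalization, 2 without the MN arrays of over 200 cells and 2 at an adjusted p under 0.05 (2 to 14 with arrays left out). Between MIX and dCINs there were 5, but 2 after quantile normalization, 2 with an intensity trend and robust prior, 68 with cell number as a covariate and 1 at an adjusted p under 0.05 (1 to 8 with arrays left out). The exact permutation test passed 0.05 for 1 member probe set, and for 2 after array medians were subtracted (1 to 3 with arrays left out). The cause of these shifts was not tested.

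Signs turned only among differences that were not called. Cntf, dCIN minus MN, was -0.0031 with cell number as a covariate, -0.018 without the MN arrays of over 200 cells and -0.25 on arrays 3 to 7 alone (-0.047 to 0.19 with arrays left out). Gfra2 AF003825_s_at ranged from -0.069 to 0.016 with arrays left out for dCIN minus MN and from -0.0080 to 0.10 for MIX minus MN. Gfra2 U97143_at, MIX minus dCIN, was -0.063 with the array number as a block, -0.0065 with an offset of 32 and -0.17 with the number of cells (-0.16 to 0.12 with arrays left out). Stat3 rc_AI236828_s_at, MIX minus dCIN, was -0.27 with the number of cells (-0.051 to 0.30 with arrays left out).

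Arrays of the same number in dCINs and MNs deviated together in part, with correlations of -0.19 to 0.53, 5 of 7 over 0.1, and 2 of 7 dCIN arrays correlated best with their own number. The numbers were therefore not taken as pairs. With the array number as a replicate block, 55 probe sets were called between dCINs and MNs. The block gave Stat3 rc_AI008865_s_at an adjusted p of 0.0130, Stat3 rc_AI236828_s_at 0.0504 and Ncam1 X06564_at 0.0162. With arrays 1 and 2 against the rest as a covariate these became 0.00336, 0.0153 and 0.0788. Bcl2 L14680_g_at was called with that covariate (0.0675), on all 22 arrays (0.0750) and with medians subtracted (0.0899) or quantiles matched (0.0861). With the threshold set at 0.05, the fit reported in the Results called neither Stat3 probe set (limma adjusted p = 0.0580 and 0.385). Depth cannot be given for array signals, and the filter at a mean log2 value of at least 6 removed 3 member probe sets, Gfra2 AF003825_s_at and rc_AA848927_s_at and Cntf rc_AA892559_at.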
